A study of Rattus norvegicus with 2 samples.

Results

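The genes examined code for RNA-binding proteins that act in developing neurons: *Elavl1*, *Elavl2*, *Elavl3* and *Elavl4*, *Fmr1*, *Fxr1* and *Fxr2*, *Ptbp1* and *Ptbp2*, and *Nova1*. These 10 genes were chosen by name and found by matching the RefSeq identifiers of the files to rat gene symbols. Of them, 8 had a value among the 9894 genes listed in at least 1 library. *Elavl2* and *Nova1* had none and were not analysed here.

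The libraries came from cells of the somatosensory cortex of Sprague-Dawley rats at embryonic day 16 (E16), which were dissociated, electroporated and cultured for 48 h in Neurobasal medium with serum and B27. The control group received the control plasmid, which codes for a scrambled siRNA (Scramble), and the PIWIL1 RNAi group a plasmid coding for an siRNA against PIWIL1, a protein of the PIWI family that binds small RNAs. Each group had 1 library, so every difference below compares 2 libraries and has no replicate check. No sorting of electroporated cells is described for these cultures, and *Piwil1* itself had no value, so the knockdown was not checked in these libraries.

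Elavl proteins, also called Hu proteins, bind AU- and U-rich stretches of mRNAs and affect their stability, splicing and translation. *Elavl1* (HuR) is active in most tissues, whereas *Elavl2*, *Elavl3* (HuC) and *Elavl4* (HuD) are typical of neurons. *Fmr1* codes for FMRP, the protein lost in fragile X syndrome, which travels with mRNAs into dendrites and represses their translation, and *Fxr1* and *Fxr2* code for its close relatives. *Ptbp1* represses neuronal exons in progenitors and non-neuronal cells, and the switch from *Ptbp1* to its neuronal relative *Ptbp2* accompanies neuronal differentiation.

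Digital gene expression profiling was used, which counts for each transcript 21-base tags starting at its CATG sites. A gene's count adds up the copies of its tags. Its TPM is that count scaled to the total of clean tags, and gene length does not enter it. The control library held 1947600 copies on genes (57.5% of 3386865 clean tags) and the PIWIL1 RNAi library 1865913 (56.5% of 3303360). A count of 3 copies, set here as a floor for low levels, equalled 0.886 TPM in the control and 0.908 TPM in the PIWIL1 RNAi library. The fewest copies listed for a tag were 2. Sites are numbered in the files. In 1351 of 1356 pairs of overlapping tags of one gene, the tag lying further 3′ had the lower number, so site 1 is the one nearest the 3′ end.

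The 8 genes were counted from 53 tags, none with a final run of 8 or more A. The tags that carried most of the copies, and those that separated the libraries for the scarce gene *Ptbp2*, are shown here 5′ to 3′, with the CATG of the cut site in capitals.
Elavl1, site 1: CATGcaacttcccgagtttct
Elavl1, site 6: CATGttcaaatgcttgaaatc
Elavl3, site 1: CATGgtgatggcttttgtttc
Elavl3, site 5: CATGgcctacggagtcaagag
Elavl4, site 2: CATGcgtgcacacacatacac
Fmr1, site 1: CATGtttttaaaatcttatta
Fxr1, site 1: CATGgtccatcagaaaaggca
Fxr2, site 1: CATGgggaaggttttggaata
Fxr2, site 6: CATGtcccgcaatgaagaagc
Ptbp1, site 1: CATGgaagagtgtaaatattt
Ptbp1, site 2: CATGtccctggccagcccaga
Ptbp2, site 1: CATGctgttctcattccttgg
Ptbp2, site 4: CATGgtagttacagccaatgg
The most copied tag lay at site 1 in 6 of the 8 genes. The same held for 5609 of the 8296 genes with 2 or more tags (67.6%). *Elavl1* (site 6) and *Elavl4* (site 2) were the exceptions.

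Because members of a family resemble each other, the tags were compared between relatives. Over 256 pairs of tags from different members of a family, the median number of mismatches was 13 and the lowest was 4. The closest pair of the Elavl genes and the closest pair of the Ptbp genes are shown with the differing bases in capitals.
Elavl1, site 11: catgaCTcagaaggaTGtgga
Elavl3, site 6: catgaGCcagaaggaGAtgga
Ptbp1, site 7: catgaGCcaCctGaaCgggca
Ptbp2, site 2: catgaATcaTctTaaTgggca
After the CATG, the Elavl pair shared 13 of 17 bases and the Ptbp pair 12 of 17. No tag of the 8 genes was within 1 mismatch of a listed tag of any other gene. All 4 of these tags were scarce, with 13 copies or fewer in either library.

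The levels of the genes spread over a wide range. In the control library *Ptbp1* (95.96 TPM), *Fxr2* (93.01 TPM) and *Elavl1* (86.81 TPM) had the highest levels, and their exact Poisson 95% intervals, which cover counting error only, overlapped. *Elavl3* followed at 36.91 TPM (30.72 to 43.97), then *Elavl4* at 25.10 TPM (20.05 to 31.03) and *Fmr1* at 20.08 TPM (15.59 to 25.45), with intervals that overlapped between neighbours. *Ptbp2* (4.72 TPM) and *Fxr1* (2.95 TPM) were at the bottom, below the median of all genes in that library (14.76 TPM). TPM is not per length, so this is the order of tag copies and not of transcripts per unit of length.

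**Figure D1:**
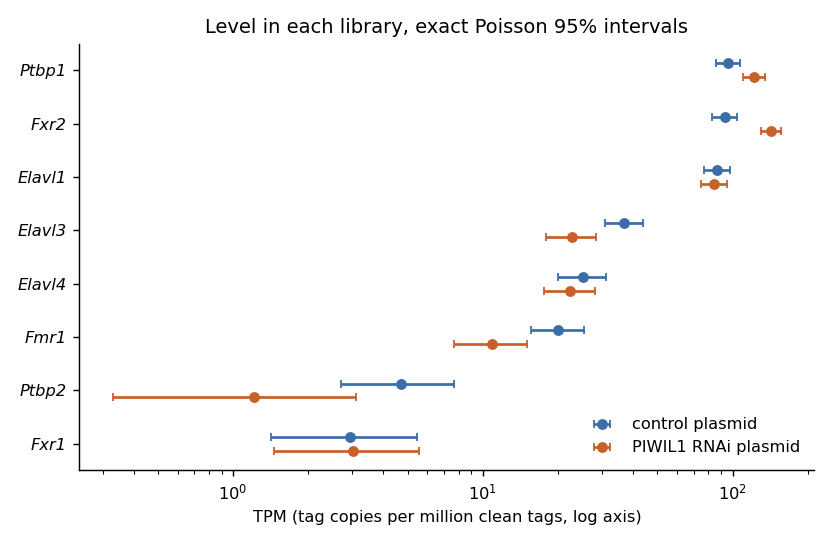
Level of each gene in the control and the PIWIL1 RNAi library, as TPM on a log axis, with bars for exact Poisson 95% intervals from the tag copies. The intervals of the 2 libraries are apart for *Fxr2*, *Ptbp1*, *Elavl3* and *Fmr1*, and overlap for *Elavl1*, *Elavl4*, *Fxr1* and *Ptbp2*.

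In the PIWIL1 RNAi library *Fxr2* came first with 142.88 TPM, ahead of *Ptbp1* with 122.00 TPM and *Elavl1* with 84.16 TPM. *Fxr2* and *Ptbp1*, which were level in the control, overlapped only at the ends of their intervals (130.3 to 156.4 and 110.4 to 134.5 TPM). *Elavl3* (22.70 TPM) and *Elavl4* (22.40 TPM) were level with each other. *Fmr1* stood at 10.90 TPM, *Fxr1* at 3.03 TPM and *Ptbp2* at 1.21 TPM, the last with an interval of 0.3299 to 3.1 TPM. Among all listed genes *Fmr1* went from rank 4122 to rank 5181, *Elavl3* from rank 2799 to rank 3704, and *Fxr2* from rank 1212 to rank 770.

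The design asks which mRNAs differ once PIWIL1 is targeted. Calls required that Fisher's exact test (two-sided, adjusted over all 9894 genes) gave an FDR no higher than 0.05 and that the log2 ratio of TPM was at least 0.58 in size. Of the 8 genes, 2 were called down (*Elavl3* and *Fmr1*), against 5.97% of all genes, and 1 was called up (*Fxr2*), against 2.96%. The other 5 were not called. The median log2 ratio was −0.10 for the 8 genes and −0.085 over all genes with copies in both libraries, and 5 of the 8 were lower and 3 higher. The 3 calls rest on counting error alone: they were lost in each fit of edgeR's exact test that assumed variation between cultures, already at a coefficient of variation of 0.1, where the FDR was 0.283 for *Elavl3*, 0.239 for *Fmr1* and 0.111 for *Fxr2*.

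**Figure D2:**
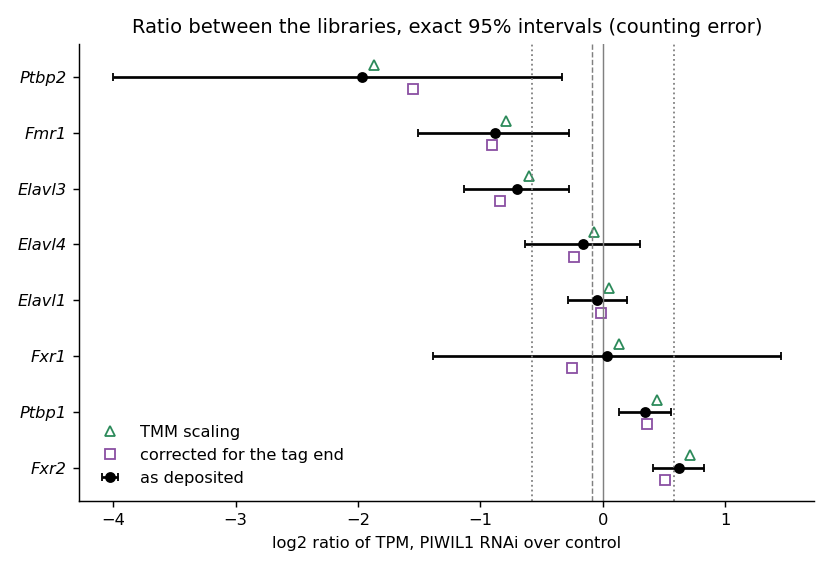
Log2 ratio of TPM, PIWIL1 RNAi over control, for each gene, with bars for exact 95% intervals. Dotted lines mark the threshold of 0.58 in both directions, the dashed line marks the median of all genes (−0.085), triangles mark TMM scaling, and squares mark copies corrected for the last bases of the tag. *Fxr2* lies just beyond the upper threshold as deposited and below it (0.51) after that correction, while *Elavl3* and *Fmr1* stay beyond the lower one.

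Of the Elavl genes, the neuronal member *Elavl3* fell. It had 125 copies in the control library and 75 in the PIWIL1 RNAi library. Its log2 ratio was −0.70 (exact 95% interval −1.13 to −0.28; FDR 0.012, Fisher's exact test). With 125 control copies, 81 or fewer in the other library would have been called, so *Elavl3* lay 6 copies inside the limit. Both tags with at least 20 copies were lower: the site 1 tag had 65 and 37 copies, and the site 5 tag 46 and 26. Their log2 ratios, −0.78 and −0.79, were close to each other. Tags of all genes that end in the same bases, TC and AG, had median log2 ratios of 0.02 and 0.11. The remaining tags were scarce and did not all go the same way, with 6 and 10 copies at site 7 and 6 and 0 at site 8. Counted from its most copied tag alone, *Elavl3* missed the FDR threshold (FDR 0.0599, Fisher's exact test).

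*Elavl4*, the other neuronal member with a value, had 85 copies in the control library and 74 in the PIWIL1 RNAi library. Its log2 ratio was −0.16 (−0.63 to 0.30; FDR 0.787, Fisher's exact test), and 51 copies or fewer would have been called. Its interval overlaps that of *Elavl3*, and the difference between these ratios was not tested. Most of its copies came from site 2, which was listed with 2 tags that differ at 1 base (T7C, position counted from the 5′ end of the tag), shown with that base in capitals.
Elavl4, site 2, more copied: CATGcgTgcacacacatacac
Elavl4, site 2, less copied: CATGcgCgcacacacatacac
The first had 45 copies in each library, and the second had 24 in the control and 18 in the PIWIL1 RNAi library. The second made up 34.78% and 28.57% of the copies of the site, far more than the base variants at site 1 of *Fxr2*, where T12G made up 1.402% and 0.8902%. Both tags run through a repeat of CA, and whether the second is an allele, a read error or another site was not tested.

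*Elavl1*, the widely expressed member, was nearly level, with 294 and 278 copies. Its log2 ratio was −0.04 (−0.29 to 0.20; FDR 0.994, Fisher's exact test), and the sign was the opposite under TMM scaling (0.05) and DESeq2's size factors (0.04). The interval leaves room for a change no larger than 0.29 downward or 0.20 upward as far as counting error goes. Its tags did not move as 1 block. The site 1 tag had 83 and 54 copies (log2 ratio −0.58, interval −1.11 to −0.07), whereas the tags further upstream at site 5 had 50 and 60 and at site 6 had 65 and 81. Site 1 therefore gave 28.23% of the copies of *Elavl1* in the control and 19.42% in the PIWIL1 RNAi library. The tags of sites 1 and 5 both end in CT, and that of site 6 ends in TC. Over all genes, tags with those ends had median log2 ratios of −0.24 and 0.02. Of the 6 tags with at least 20 copies, 3 were higher and 3 lower, and these tags were described after their values were seen.

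Summed over the 3 genes, the Elavl family had 504 copies in the control library and 427 in the PIWIL1 RNAi library (log2 ratio −0.20, −0.39 to −0.01). The neuronal pair *Elavl3* and *Elavl4* summed to 210 and 149 copies (log2 ratio −0.46, −0.77 to −0.15), a sum that followed *Elavl3*. The share of *Elavl3* in the family was 24.8% (exact binomial 95% interval 21.09 to 28.81) and then 17.56% (14.07 to 21.51). *Elavl4* held its share, with 16.87% and 17.33%, and *Elavl1* went from 58.33% to 65.11%. There were 1.4 copies of *Elavl1* for each copy of *Elavl3* or *Elavl4* in the control and 1.87 in the PIWIL1 RNAi library.

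**Figure D3:**
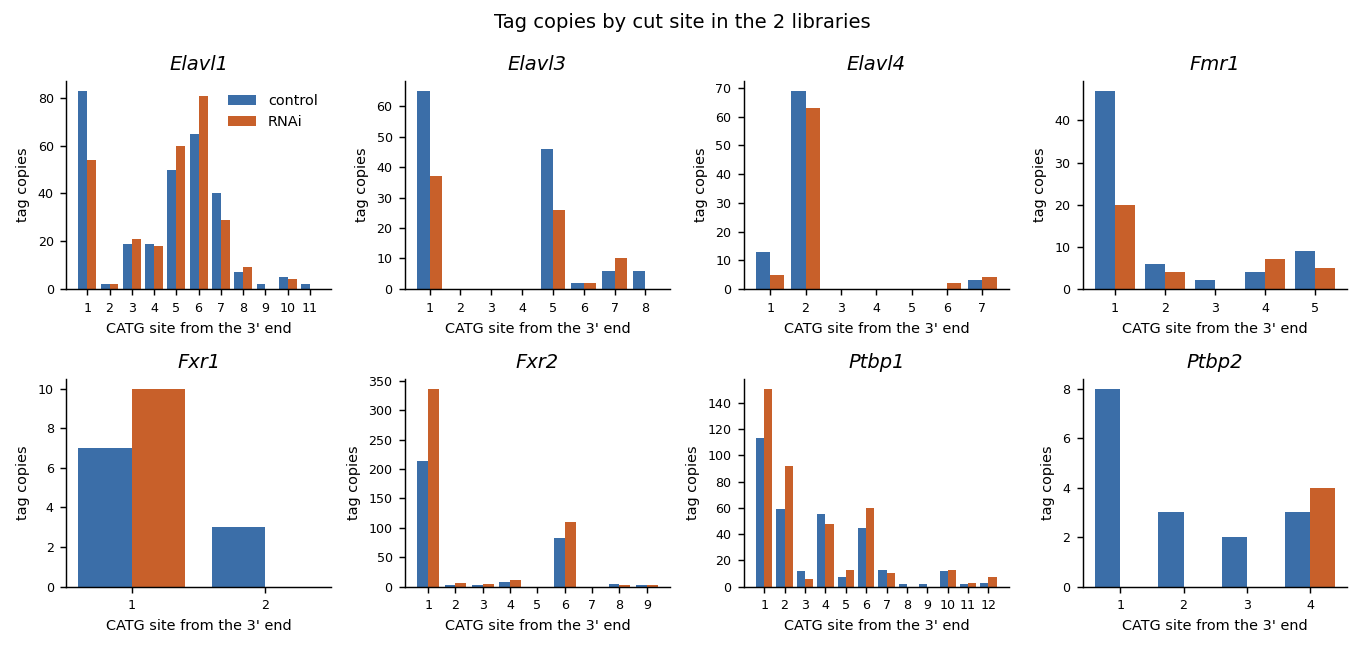
Tag copies at each CATG site of the 8 genes in the control and the PIWIL1 RNAi library, with sites counted from the 3′ end and tags of 1 site summed. Both main sites are lower in the PIWIL1 RNAi library for *Elavl3* and higher for *Fxr2*, while site 1 of *Elavl1* is lower and its site 6 higher.

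Of the fragile X genes, *Fmr1* fell and *Fxr2* rose. *Fmr1* had 68 copies in the control library and 36 in the PIWIL1 RNAi library. Its log2 ratio was −0.88 (−1.51 to −0.28; FDR 0.029, Fisher's exact test). At 68 control copies the limit for a call was 37 copies, so *Fmr1* was called by a margin of 1 copy. Most of the lower count came from the site 1 tag, which had 47 and 20 copies (log2 ratio −1.20). The 4 other tags each had under 10 copies per library, and 3 of them were also lower, with 6 and 4 copies at site 2, 2 and 0 at site 3, and 9 and 5 at site 5. Site 1 gave 69.12% of the copies of *Fmr1* in the control and 55.56% in the PIWIL1 RNAi library. The site 4 tag was higher, with 4 and 7 copies.

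*Fxr2* had 315 copies in the control library and 472 in the PIWIL1 RNAi library, 1.536 times the control level per clean tag. The log2 ratio was 0.62 (0.41 to 0.83), and its FDR (1.82e-08, Fisher's exact test) was the smallest of the 8 genes. At least 460 copies were needed for a call. The most copied tag, at site 1, had 211 and 332 copies (log2 ratio 0.69), and the site 6 tag had 83 and 110 (0.44, interval 0.02 to 0.87). The higher count was thus seen at both main sites, though the lower bound of the site 6 tag was near 0. These tags end in TA and GC, and tags of all genes with those ends had median log2 ratios of 0.04 and 0.15. After a correction of all copies for the tag end, *Fxr2* had a log2 ratio of 0.51 and, at an FDR of 4.48e-06 (Fisher's exact test), no longer reached the ratio threshold. The site 1 tags of *Fmr1* and *Fxr2* share the last bases TA, and their log2 ratios were −1.20 and 0.69.

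*Fxr1* was too scarce to compare: it had 10 copies in each library. Its log2 ratio was 0.04 with an interval of −1.38 to 1.46. In the PIWIL1 RNAi library it would have needed 0 copies to be called down and at least 26 to be called up, so that most differences within this interval were not detectable at this depth. Of its tags, that of site 1 had 7 and 10 copies and that of site 2 had 3 and 0.

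The 3 genes summed to 393 copies in the control library and 518 in the PIWIL1 RNAi library (log2 ratio 0.43, 0.24 to 0.63), so the sum followed *Fxr2*. *Fmr1* made up 17.3% of these copies in the control (13.69 to 21.41) and 6.95% in the PIWIL1 RNAi library (4.915 to 9.492). *Fxr2* made up 80.15% (75.86 to 83.98) and 91.12% (88.33 to 93.43). There were 4.63 copies of *Fxr2* per copy of *Fmr1* in the control and 13.1 in the PIWIL1 RNAi library.

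**Figure D4:**
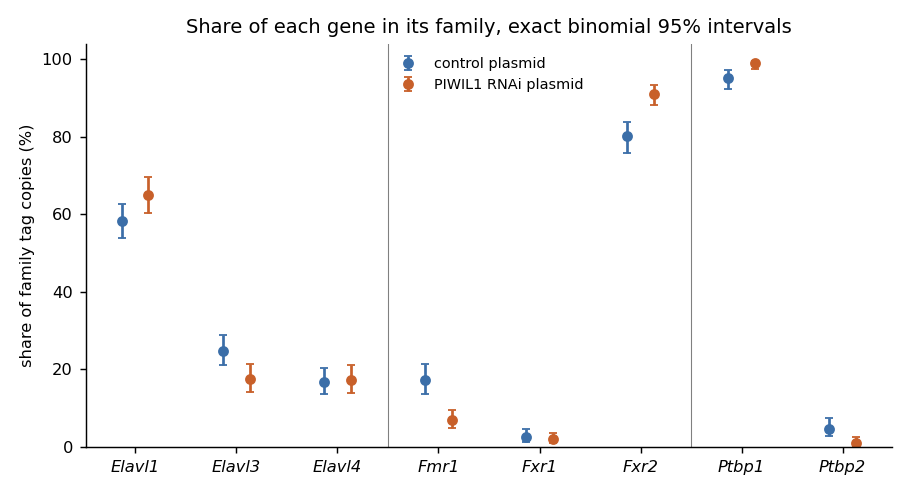
Share of each gene in the tag copies of its family (percent of the family's copies in the library), with exact binomial 95% intervals, in the control and the PIWIL1 RNAi library. The intervals are apart for *Fmr1* (17.3% and 6.95%) and *Fxr2* (80.15% and 91.12%), and narrowly so for *Ptbp1* and *Ptbp2*.

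Neither Ptbp gene was called. *Ptbp1* had 325 copies in the control library and 403 in the PIWIL1 RNAi library, 1.271 times the control level per clean tag. Its log2 ratio of 0.35 (0.13 to 0.56) passed the FDR threshold (FDR 0.00561, Fisher's exact test) and lay below the ratio threshold, for which 474 copies were needed. Among its 7 tags with at least 20 copies, 5 were higher and 2 lower. The site 1 tag had 113 and 151 copies and the site 2 tag 59 and 92, whereas the site 4 tag had 55 and 48.

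*Ptbp2*, the neuronal relative, had fewer copies after PIWIL1 RNAi, 16 in the control library and 4 in the PIWIL1 RNAi library. The log2 ratio was −1.96, the farthest from 0 of the 8 genes, with an interval of −4.0 to −0.33. Its FDR was 0.0671 (Fisher's exact test), and 3 copies would have been called. The control library held 4 different tags of *Ptbp2* and the PIWIL1 RNAi library 1. The site 1 tag had 8 and 0 copies, the site 2 tag 3 and 0, the site 3 tag 2 and 0, and the site 4 tag 3 and 4. Tags with 1 copy are absent from the files, and when tags found in only 1 library were given 1 copy in the other the log2 ratio was −1.16 (FDR 0.327, Fisher's exact test). At 3 of its 4 sites the tag ended in GG, and tags of all genes with that end had a median log2 ratio of −0.55.

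*Ptbp2* made up 4.692% (2.705 to 7.508) of the copies of both Ptbp genes in the control and 0.9828% (0.2684 to 2.497) in the PIWIL1 RNAi library. There were 20.3 copies of *Ptbp1* per copy of *Ptbp2* in the control and 101 in the PIWIL1 RNAi library. The last ratio rests on 4 copies. Their sum, 341 and 407 copies, followed *Ptbp1* (log2 ratio 0.29, 0.08 to 0.50).

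Of 41 other RNA-binding proteins of neurons, 27 had a value, and 0 were called in either direction, beside 5.97% of all genes called down and 2.96% called up. With shares this low, few calls among 27 genes would match the background, and the count of 0 is not a result about the list. By FDR alone, 4 were lower and 3 higher (Fisher's exact test). Over the 22 of them with copies in both libraries the median log2 ratio was −0.08, close to that of all genes (−0.085). *Khdrbs1* (Sam68), which had the most copies, had 1960 and 1720. *Khdrbs3*, a relative of *Khdrbs1*, had 900 and 852 copies, and *Celf3*, a splicing regulator, had 477 and 568 (log2 ratio 0.29).

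**Figure D5:**
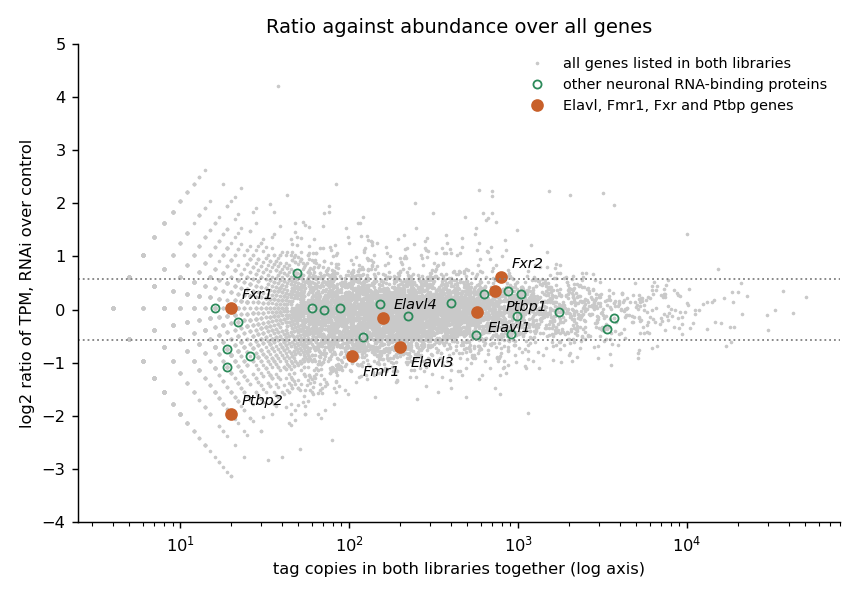
Log2 ratio of TPM against the tag copies of both libraries together (log axis) for every gene listed in both libraries (grey), the other neuronal RNA-binding proteins (open circles) and the Elavl, Fmr1, Fxr and Ptbp genes (filled). Dotted lines mark the threshold of 0.58 in both directions. *Elavl3*, *Fmr1* and *Ptbp2* lie below the lower line and *Fxr2* above the upper one, and the grey points spread widely where copies are few.

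Partners of FMRP and proteins of its mRNA granules were listed for 11 of 16 genes, of which 1 was called down and 1 up, numbers too small to set apart from the 5.97% and 2.96% of all genes. *G3bp1*, a stress granule protein, had 1728 and 1754 copies. The poly(A)-binding protein gene *Pabpc1* (813 and 621 copies), the gene of the cap-binding protein *Eif4e* (529 and 386) and the kinesin gene *Kif3c* (505 and 401) had fewer copies in the PIWIL1 RNAi library and did not reach the ratio threshold, with log2 ratios of −0.35, −0.42 and −0.30. The call upward was *Ddx6*, an RNA helicase of P-bodies, with 112 and 244 copies (log2 ratio 1.16, FDR 3.77e-12, Fisher's exact test). However, tags with a final run of at least 8 A held 85.4% of the copies of *Ddx6*, and without those tags its log2 ratio was −0.87 (FDR 0.199, Fisher's exact test) and it was not called. The call downward was *Kif5b*, a kinesin motor, with 8 copies in the control and 0 in the PIWIL1 RNAi library (FDR 0.048, Fisher's exact test). It was no longer called after the tag-end correction (FDR 0.061, Fisher's exact test). The call was also lost when tags found in only 1 library were given 1 copy in the other (log2 ratio −1.38, FDR 0.554, Fisher's exact test). Tags with such a run of A held 0% of the copies of *Kif5b*. With those tags of other genes left out, its FDR was 0.0502 (Fisher's exact test), just over the threshold.

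The mRNAs that these proteins are known to bind were followed as gene totals. Of 14 mRNAs known to be bound by FMRP, 12 had a value, 3 were called down (5.97% of all genes) and 0 up (2.96% of all genes). Over the 11 with copies in both libraries the median log2 ratio was −0.38, beside −0.085 for all genes. The list holds *Fmr1* itself and was written with earlier results of these data known. Its calls and median are therefore no independent evidence on mRNAs bound by FMRP, and no set test was run. The calls were *Map1b*, a microtubule-associated protein that the study itself singled out on these libraries, with 3392 and 1758 copies (log2 ratio −0.91), *Cdh2* (N-cadherin) with 1064 and 680 (−0.61), and *Fmr1* itself. *Cdh2* missed the ratio threshold under TMM scaling (−0.52) and after the tag-end correction (−0.45). *Sod1*, an antioxidant enzyme, had 409 and 342 copies and *App*, the amyloid precursor protein, 296 and 307.

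Of 19 mRNAs known to be bound by Elavl proteins, 14 had a value under 15 identifiers, with 1 called down (5.97% of all genes) and 1 up (2.96% of all genes) and a median log2 ratio of −0.09. *Mapt* (tau), which the study also singled out on these libraries, was called down, with 4138 and 2514 copies (log2 ratio −0.68). Its call was lost in edgeR's exact test at an assumed coefficient of variation of 0.1 (log2 ratio −0.66). *Gap43*, a growth cone protein whose mRNA is bound by HuD, had 2670 and 3541 copies, a log2 ratio of 0.44 that lay below the ratio threshold. *Ccnd1* (cyclin D1) had 74 and 131 copies and was called up (log2 ratio 0.86). Tags with such a run of A held 51.7% of its copies, and without those tags its log2 ratio was −0.10 and it was not called. *Actb* (beta-actin) had 5769 and 5289 copies and *Mycn*, a transcription factor of progenitors, 1073 and 1038.

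All 10 genes with exons that Ptbp proteins are known to repress had a value, and those with the most copies were not called. *Pkm* (pyruvate kinase) had 1184 and 940 copies, *Shtn1* (shootin) 523 and 539, *Flna* (filamin A) 419 and 409, and *Gabbr1* (a GABA-B receptor subunit) 351 and 301. A count per gene does not show which exons were used, so the splicing of these genes was not measured here. Over the 9 with copies in both libraries, *Ptbp2* itself among them, the median log2 ratio was −0.19, beside −0.085 for all genes.

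Markers of the cell types that a cortical culture can hold were summed beside these results. All 6 neuronal markers were listed, with 3070 TPM in all in the control and 2461 TPM in the PIWIL1 RNAi library, most of it *Stmn2* (7484 and 5678 copies). Of these, *Map2* was called down (24 and 8 copies), a call that was lost under TMM scaling (FDR 0.0677, Fisher's exact test), under DESeq2's size factors (FDR 0.0671) and with 1 copy given to tags found in only 1 library (log2 ratio −1.09, FDR 0.187). *Tubb3* had 1538 and 1068, and *Dcx* had 1337 and 1365. Progenitor markers, 5 of 6 listed, summed to 968.4 and 1269 TPM: *Vim* had 2674 and 3724 copies, while the other 4, *Sox2* (320 and 260) among them, had fewer copies in the PIWIL1 RNAi library, and none of the 5 was called. Interneuron markers (6 of 6) summed to 61.71 and 60.24 TPM and astrocyte markers (4 of 6) to 88.58 and 80.52 TPM. The interneuron marker *Lhx6* was called down (68 and 35 copies, log2 ratio −0.92), and after the tag-end correction its log2 ratio was −0.40 and it was not called (FDR 0.52, Fisher's exact test). The oligodendrocyte lineage (6 of 6) stood at 7.381 and 5.752 TPM, microglia (3 of 6; *Cx3cr1*, *Itgam* and *Ptprc* not listed) at 15.94 and 18.47 TPM, and endothelium (1 of 6) at 0 and 0.6054 TPM. The part of these values in the results for *Elavl3*, *Fmr1*, *Fxr2* and the Ptbp genes was not tested, and in bulk RNA fewer cells of a type and less RNA per cell cannot be told apart.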

How the data were processed

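Both libraries were made from total RNA of cultured E16 rat cortical cells with Illumina's protocols and hold 21-base digital gene expression tags. Per the labels the genome build was rn4, for which no genome or annotation was used here, so no coordinates are given. The authors deposited for every gene a tag count (the sum of the copies of its tags, not normalized) and a TPM (copies scaled to the clean tags of the library). The aligner, its settings and the removal of tags with 1 copy are not given in the sources used here, and the assignment of tags to genes was taken as deposited. Symbols were looked up by RefSeq accession in a table of rat genes, which matched 9337 of 9894 identifiers (94.4%).

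Fisher's exact test (two-sided) compared each gene's copies with all other copies on genes, with Benjamini-Hochberg adjustment over 9894 genes. The thresholds, an FDR of 0.05 and an absolute log2 ratio of 0.58, are those used in the study. Intervals are exact at 95% (Clopper-Pearson, or Poisson for a level) and cover counting error only, since each group had 1 library. Amplified copies are not independent molecules, so the intervals may be too narrow even for counting error. The count test was tested on simulated data.

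Alternatives were TMM and DESeq2 size factors, edgeR's exact test with an assumed coefficient of variation of 0.1, 0.2 or 0.4, the Audic-Claverie test, other totals, filters, thresholds and pseudocounts, copies summed per symbol, tags seen in only 1 library, the most copied tag alone, omission of tags with a final run of at least 8 A, and a correction for the tag end. For the last, the median log2 ratio of tags with the same end (last bases, or length of an A run) among tags with at least 20 copies was taken from one random set of genes and removed from the rest.

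The genes examined, the lists of partners, bound mRNAs and markers, and the tests were chosen with earlier results of these data known. The genes named are the 10 listed ones and, of each list, the called genes and up to 4 of those with the most copies. Some genes of these lists are not reported here by name. Python 3.11.15 (NumPy 2.4.6, pandas 2.3.3, SciPy 1.17.1, Matplotlib 3.10.9) and R 4.3.3 (edgeR 4.0.16, DESeq2 1.42.0) were used.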

Additional observations from a re-analysis of the deposited data

How the results depend on the processing

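Under 17 alternatives the log2 ratio stayed negative for *Elavl3* (−0.84 to −0.61) and *Fmr1* (−1.20 to −0.79) and positive for *Fxr2* (0.51 to 0.71) and *Ptbp1* (0.35 to 0.45). With edgeR's exact test at a coefficient of variation of 0.1, 0.2 or 0.4, the log2 ratios were −0.67 for *Elavl3*, −0.85 for *Fmr1* and 0.65 for *Fxr2*, and 0 of the 8 genes were called down and 0 up. With a log2 threshold of 1, 0 were called down and 0 up, at the same log2 ratios (−0.70, −0.88 and 0.62). An FDR threshold of 0.001 left 0 called down and the call of *Fxr2*. The most copied tag alone left 1 called down, since *Elavl3* (−0.78) missed the FDR threshold. The correction for the tag end left 0 called up, with *Fxr2* at 0.51. The calls were thus lost where variation was assumed, a threshold was stricter, copies were fewer or the tag end was corrected for. Whether they would hold between replicate cultures could not be tested with 1 library per group. Signs turned for uncalled genes: *Elavl1* (0.050 under TMM, 0.040 under DESeq2's size factors, 0.35 by its most copied tag), *Elavl4* (0.036 by its most copied tag) and *Fxr1* (−0.25 after the tag-end correction). *Ptbp2* stayed uncalled and negative under the 15 alternatives that gave it a value (−1.96 to −1.16), and none was given by its most copied tag or by the filter of 10 copies in both libraries.

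Over all genes, 591 were called down and 293 up. TMM factors gave 459 and 398, and DESeq2's size factors 475 and 382. The counts were 170 and 114 at a coefficient of variation of 0.1, 2 and 15 at 0.2, and 0 and 0 at 0.4. They were 262 and 146 with the log2 threshold of 1, 257 and 163 with the FDR of 0.001, and 369 and 188 after the tag-end correction. No paired analysis was possible because each group had 1 library. Genes with few copies are limited by depth: the fewest copies in both libraries of any called gene were 7.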
